A study of Mus musculus with 2 samples.

Results

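The genes of the respiratory chain and of the ATP synthase, which carry out oxidative phosphorylation, were followed in single-cell libraries of differentiating mouse embryonic stem cells. Members were chosen by symbol alone, as genes named for complexes I to V in mitochondrial or nuclear DNA, with pseudogenes left out. This gave 105 of 27998 listed genes, 13 of them mitochondrially encoded and 92 nuclear. The nuclear genes comprise 83 subunits, 7 complex I assembly factors with Ndufaf symbols, and Atp5s and Atp5sl, which carry the ATP synthase name and were kept apart from its subunits. Ndufa4 and Ndufa4l2 were counted with complex IV.

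The study compared AB2.2 cells, an established mouse embryonic stem cell line, as wild type and as a PHD2 knockout. Both were differentiated for 4 days toward mesendoderm, the precursor of mesoderm and endoderm, and each is represented by 1 library from the 10x Genomics droplet method. PHD2, the product of Egln1, hydroxylates hypoxia-inducible factor (HIF) and so marks it for degradation when oxygen is present. Which part of Egln1 was altered, and whether the knockout is 1 clone, the labels do not say.

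Complexes I and II pass electrons to coenzyme Q, complex III passes them to cytochrome c, and complex IV hands them to oxygen. Complexes I, III and IV pump protons as they do so, and complex V, the ATP synthase, uses the gradient to make ATP. Every complex except complex II is built from subunits of both genomes, and HIF is known to raise particular isoforms, Ndufa4l2 and Cox4i2 among them.

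After filtering, 8515 wild type cells (median 20444 unique molecular identifiers, UMIs) and 6927 knockout cells (median 20999) were kept. Levels are UMIs summed over a group of cells and scaled to that group's total as counts per 1000000 (CPM). Pairs of levels are given with wild type first and knockout second. Levels are not divided by transcript length, so they are not compared between genes. Because each genotype is a single library, no difference has a replicate check or a test, clone and genotype cannot be told apart, and the 95% intervals cover counting error only. Log2 ratios are of knockout over wild type with 1 CPM added to each level. A gene was measured if its higher level reached 5 CPM, and counted as higher or lower if the ratio of the levels themselves, with nothing added, was past 1.5-fold. The libraries had 22 barcodes in common, 15 of them among kept cells. Egln1 was at 18.2 and 13.7 CPM, which does not check the knockout, since transcript outside the altered part would still be counted. All 3 pluripotency markers were detected, with Pou5f1 at 143 and 113 CPM. Of 5 feeder fibroblast markers only Cdh11 reached the minimum level (0.114 and 7.21 CPM), and Col1a1 was at 0.273 and 0.565 CPM. Their part in the member ratios was not tested.

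The 1 member past the fold in all kept cells encodes an isoform. Ndufa4l2 (ENSMUSG00000040280; mm10 chr10:127514967-127517154, plus strand) is the paralogue of Ndufa4 (ENSMUSG00000029632; chr6:11900292-11907497, minus strand), whose product sits in complex IV. Both coding sequences are shown because the result depends on telling these paralogues apart. They come from the principal transcripts in the GENCODE M21 annotation of mm10, each with 4 exons. Capitals mark bases that differ from, or have no partner in, the other sequence after pairwise alignment.
Ndufa4: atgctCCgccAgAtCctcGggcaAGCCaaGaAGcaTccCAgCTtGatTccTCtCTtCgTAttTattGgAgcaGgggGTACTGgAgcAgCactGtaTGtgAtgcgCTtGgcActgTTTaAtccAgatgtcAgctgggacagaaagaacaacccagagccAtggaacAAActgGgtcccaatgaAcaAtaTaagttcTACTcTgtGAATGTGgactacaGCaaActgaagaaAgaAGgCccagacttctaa
Ndufa4l2: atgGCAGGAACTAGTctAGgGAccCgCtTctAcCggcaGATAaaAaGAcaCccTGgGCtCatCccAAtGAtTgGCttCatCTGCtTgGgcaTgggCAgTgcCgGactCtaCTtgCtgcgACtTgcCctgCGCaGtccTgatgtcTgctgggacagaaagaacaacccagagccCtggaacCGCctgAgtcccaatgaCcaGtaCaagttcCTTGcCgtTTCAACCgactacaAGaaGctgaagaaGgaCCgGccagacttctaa
The sequences are 249 and 264 bases long, and 168 of 245 aligned bases (68.6%) are identical.

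Ndufa4l2 was at 1.42 CPM (286 UMIs; 1.26 to 1.59) without the knockout and at 12.2 CPM (1926 UMIs; 11.7 to 12.8) with it. The ratio was 8.62 (7.61 to 9.79), or 2.45 on the log2 scale, and the gene met the minimum level through the knockout alone. With each cell thinned to 14000 UMIs, 1.98% of 7742 wild type cells (1.68 to 2.31) held a Ndufa4l2 UMI. In the knockout it was 13.6% of 6283 cells (12.8 to 14.5), so most knockout cells still showed none at this depth. Without thinning the shares were 3.04% and 19.1%. No class of cells that should lack the gene was defined, so the share that free RNA could give was not measured. Ndufa4 was at 1096 and 1186 CPM, a log2 ratio of 0.11 that became -0.06 with size factors by median of ratios.

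Over all 100 measured members, 1 was higher and 0 were lower, where 11.7% of all 8537 measured genes were higher and 2.35% lower. These shares are not at like levels. Of genes outside mitochondrial DNA, 3918 averaged 5 to 20 CPM, among them 6 nuclear members. At 500 to 3000 CPM there were 196 such genes, among them 34 nuclear members. Genes past the fold were not counted at like levels. The 5 members under the minimum level were mt-Nd6, Cox4i2, Cox6a2, Cox8b and Cox8c. The median log2 ratio of all measured genes was 0.16. Size factors by median of ratios moved it to -0.01, a shift of -0.17, under which 22 of the 100 members changed sign.

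The medians of mitochondrially encoded and of nuclear subunits lay on different sides of the median of all genes, with single genes of each on both sides. The 79 measured nuclear subunits had a median log2 ratio of -0.09, with 29 above 0. The 12 measured mitochondrially encoded subunits had a median of 0.36, with 11 above 0. The nuclear members summed to 39745 and 37469.7 CPM, and the mitochondrially encoded ones to 10512 and 13114 CPM. Per 100 UMIs of nuclear members there were 26.4 mitochondrially encoded UMIs in wild type and 35.0 in the knockout, a count that no scaling of the libraries affects. In the median cell, mitochondrially encoded members held 1.07% of UMIs in wild type (quartiles 0.774% and 1.36%). The knockout median was 1.32% (0.972% and 1.65%), so single cells of the libraries overlapped widely. Cells with over 10% had been filtered out of both libraries. More mitochondrially encoded RNA per cell and less other RNA cannot be told apart in such shares.

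**Figure D1:**
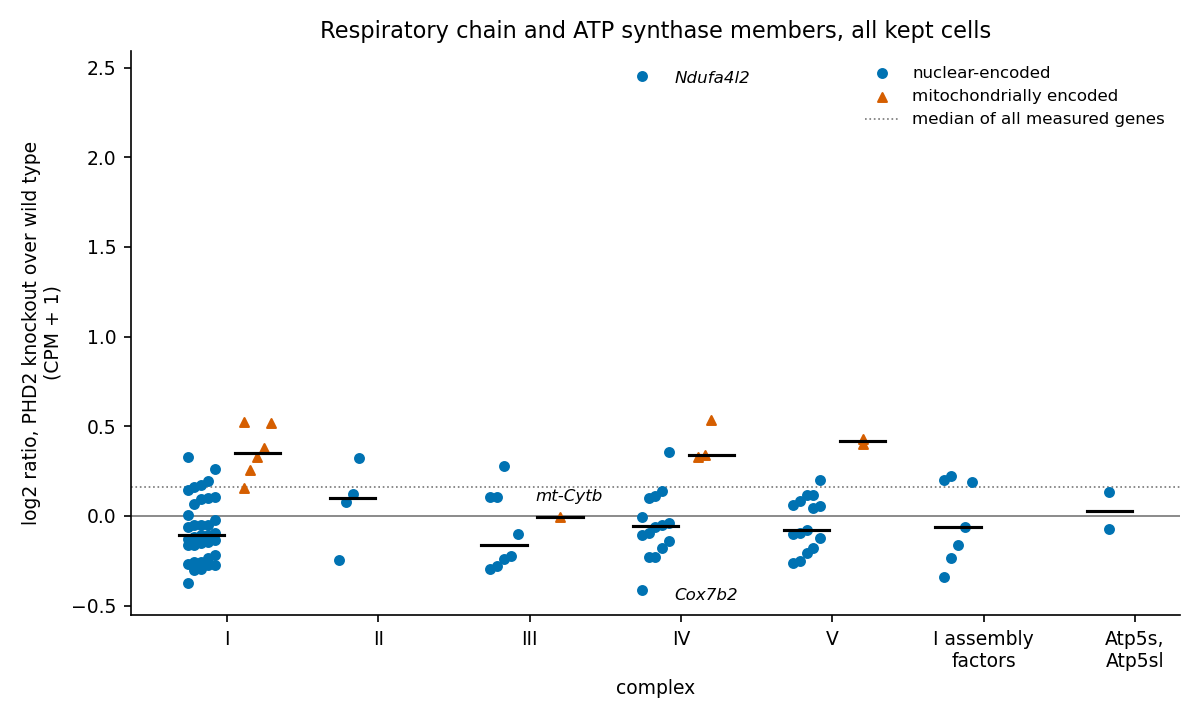
Log2 ratio of knockout over wild type (CPM + 1) for the 100 measured members by complex, with nuclear and mitochondrially encoded genes in different symbols, bars at group medians and a line at the median of all measured genes, 0.16. Mitochondrially encoded genes lie above that line except mt-Cytb (-0.01) and mt-Nd4l (0.16), and Ndufa4l2 stands apart at 2.45.

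The mitochondrially encoded genes differed by unequal amounts. In complex I they encode membrane subunits of the proton-pumping arm. Mt-Nd3 was at 51.1 and 73.7 CPM (0.52 on the log2 scale), mt-Nd5 at 69.2 and 99.9 CPM (0.52) and mt-Nd4 at 455 and 544 CPM (0.26). Mt-Nd1 was at 384 and 482 CPM (0.33) and mt-Nd2 at 249.6 and 324 CPM (0.38). For mt-Nd4l, at 114 and 127 CPM, the log2 ratio of 0.16 became -0.01 with size factors by median of ratios. Mt-Nd6, the only one of the 13 read from the light strand, was at 0.95 and 1.59 CPM (192 and 250 UMIs). The ratio was 1.67 (1.37 to 2.02), with both levels under the minimum.

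Mt-Co1, mt-Co2 and mt-Co3 encode the catalytic core of complex IV. Mt-Co3 (chrM:8607-9390) was at 1319 CPM (1314 to 1324) and 1910.1 CPM (1903 to 1917), and its log2 ratio of 0.53 was the highest among the 12. Mt-Co1 was at 1356 and 1718 CPM (0.34) and mt-Co2 at 2469 and 3103 CPM (0.33). Of the membrane subunits of the ATP synthase, mt-Atp6 was at 2133 and 2818 CPM (0.40) and mt-Atp8 at 29.8 and 40.5 CPM (0.43). The genes mt-Atp8 and mt-Atp6 overlap, as do mt-Nd4l and mt-Nd4, so the division of reads within each pair is uncertain.

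Mt-Cytb (ENSMUSG00000064370; chrM:14145-15288, plus strand), the mitochondrially encoded subunit of complex III, was the exception. It was at 1881 CPM (1875 to 1887) and 1872 CPM (1865 to 1878), a log2 ratio of -0.01 and of -0.18 with size factors by median of ratios. Among cells with a low share of autosomal UMIs from chromosome 8 it was 0.03. Of all UMIs from the 13 genes, mt-Cytb gave 17.9% in wild type and 14.3% in the knockout. Mt-Co3 gave 12.5% and 14.6%, and mt-Atp6 20.3% and 21.5%. Among cells with a high share of autosomal UMIs from chromosome 8, mt-Atp6 gave 20.2% in both libraries, mt-Cytb 17.8% and 13.9%, and mt-Co3 12.5% and 14.7%. Among cells with a low share, mt-Atp6 gave 20.6% and 22.8%, mt-Cytb 18.5% and 14.7%, and mt-Co3 12.7% and 14.4%. The mt-Atp6 share thus differed between genotypes in the low class only. Mitochondrially encoded transcripts thus differed in composition as well as in sum.

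**Figure D2:**
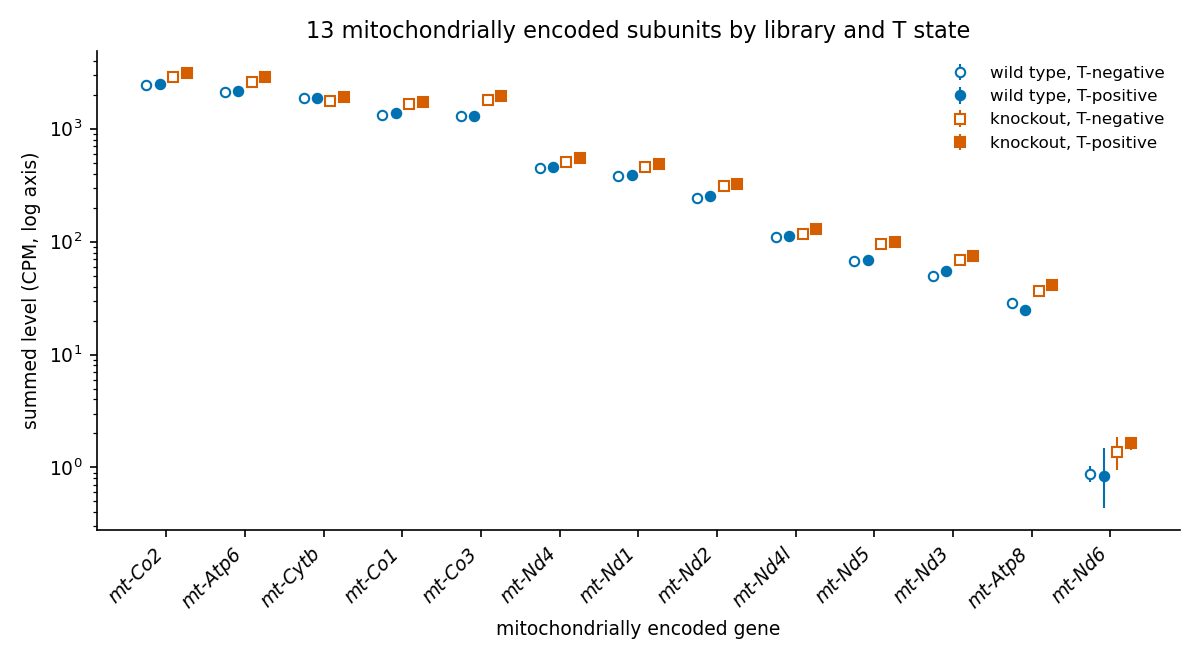
Summed level (CPM, log axis) of the 13 mitochondrially encoded subunits in T-negative and T-positive cells of each library, with 95% Poisson intervals for counting error. For 12 genes both knockout points lie above both wild type points, while mt-Cytb has 1863 and 1872 CPM for wild type, with the knockout at 1766 and 1893 CPM.

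Complex I takes electrons from NADH. Its 36 nuclear subunits had a median log2 ratio of -0.10 with 11 above 0, and the medians were -0.10 for the 7 core and -0.12 for the 29 accessory subunits. The lowest ratios were those of Ndufa13 (579 and 446 CPM, -0.37) and Ndufs6 (633 and 513 CPM, -0.30). The highest were those of Ndufb11 (369 and 463 CPM, 0.33) and Ndufa1 (215 and 258 CPM, 0.26), and both of these genes lie on chromosome X. Ndufab1, the mitochondrial acyl carrier protein and the member of this complex with the most UMIs, was at 769 and 660.5 CPM (-0.22).

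Complex II, which oxidises succinate, is wholly nuclear. Sdha, the flavoprotein that binds succinate, was at 54.4 and 68.3 CPM (0.32), whereas Sdhb, an iron-sulphur protein, was at 184 and 155 CPM (-0.25). The membrane anchors were at 48.4 and 52.9 CPM (Sdhc) and 92.5 and 97.8 CPM (Sdhd), log2 ratios of 0.12 and 0.08 that turned negative (-0.04 and -0.09) with size factors by median of ratios. None of the 4 passed the fold.

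The 8 nuclear subunits of complex III that match the symbol rule had a median of -0.16. Cyc1 (cytochrome c1), also part of this complex, does not match it and was counted with the electron carriers. The small subunits Uqcrq and Uqcrb were at 921 and 749 CPM (-0.30) and 697 and 574 CPM (-0.28). Uqcrh, the hinge protein, was at 539 and 655 CPM (0.28), and Uqcrc2, a core protein, at 123 and 133 CPM (0.11, and -0.06 with size factors by median of ratios).

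Complex IV had 16 measured nuclear members of 20, with a median of -0.06. Cox7c, with the most UMIs, was at 1897 and 1724 CPM (-0.14) and Cox5a at 1121 and 955 CPM (-0.23). Cox7a2l, which links complexes III and IV in supercomplexes, was at 352 and 452 CPM (0.36), the highest ratio after Ndufa4l2 among nuclear subunits that reached 5 CPM.

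Complex V had 15 nuclear subunits with a median of -0.08. Atp5e, the epsilon subunit, was at 863 and 721 CPM (-0.26). Atp5a1, the alpha subunit, was at 416 and 451 CPM (0.12, and -0.06 with size factors by median of ratios). The genes Atp5g1, Atp5g2 and Atp5g3 encode the same mature c subunit of the rotating ring. They were at 859.9 and 721 CPM (-0.25), 1189 and 1225 CPM (0.04, and -0.13 with those size factors) and 412 and 474 CPM (0.20, and 0.03), and none of the 3 passed the fold.

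Of the 7 complex I assembly factors, Ndufaf2 was at 95.2 and 74.99 CPM (-0.34) and Ndufaf3 at 45.7 and 38.7 CPM (-0.24). Ndufaf1 was at 19.9 and 23.4 CPM (0.22) and Ndufaf4 at 89.4 and 103 CPM (0.20). Atp5s and Atp5sl were at 5.33 and 5.02 CPM and 14.8 and 16.3 CPM.

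Ratios of nuclear members are set beside those of other genes, first by level and then by length. Among genes averaging 500 to 3000 CPM the median log2 ratio was -0.12 over 196 genes and -0.10 over the 34 nuclear members among them, and at 100 to 500 CPM -0.04 over 1009 genes and -0.06 over 38. At 20 to 100 CPM it was 0.14 over 2970 genes and 0.10 over 10 nuclear members, and at 5 to 20 CPM 0.23 over 3918 and 0.12 over 6. The Spearman correlation of ratio with transcript length was 0.30 across 88 nuclear members and 0.29 across 8314 other nuclear genes, a description over genes that share both libraries. The 40 subunits with transcripts of at most 659 bases had a median of -0.13 and the 39 longer ones 0.04. Other nuclear genes of at least 100 CPM had -0.11 (166 shorter genes) and -0.04 (1030 longer genes). The subunits had no minimum of 100 CPM, so their medians and those of the other genes are not at like levels. The part of level or length in the nuclear ratios was not tested.

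Several subunits of complex IV have tissue-specific isoforms. Cox4i2 (chr2:152754173-152765037), an isoform of Cox4i1, was at 2.42 CPM (489 UMIs; 2.21 to 2.65) and 4.28 CPM (674 UMIs; 3.96 to 4.61). The ratio was 1.76 (1.57 to 1.99), with both levels under the minimum. After thinning, 3.29% and 5.43% of cells held a UMI. Cox4i1 was at 1540.4 and 1444 CPM (-0.09).

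The common form Cox6a1 had 221 and 215 CPM, and Cox6b1 had 910.5 and 803 CPM. Cox7a2, Cox7b and Cox8a were at 775 and 771 CPM, 552 and 529 CPM and 1525 and 1471 CPM. Cox6b2, known as a testis form, was at 126 and 139 CPM, and Cox7a1, a muscle form, at 10.8 and 11.7 CPM. Differences in these forms stayed under the fold. Cox6a2, the muscle form of Cox6a1, was at 0.62 and 0.36 CPM (125 and 57 UMIs), a ratio of 0.58 (0.42 to 0.80). Cox8c was at 0.31 and 0.45 CPM (63 and 71 UMIs), a ratio of 1.44 (1.01 to 2.06). These levels were all under the minimum. Cox8b gave 0 UMIs in either library, which by the limit of 3 counts in the number of cells allows a UMI in up to 0.0352% of 8515 wild type cells and 0.0433% of 6927 knockout cells.

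**Figure D3:**
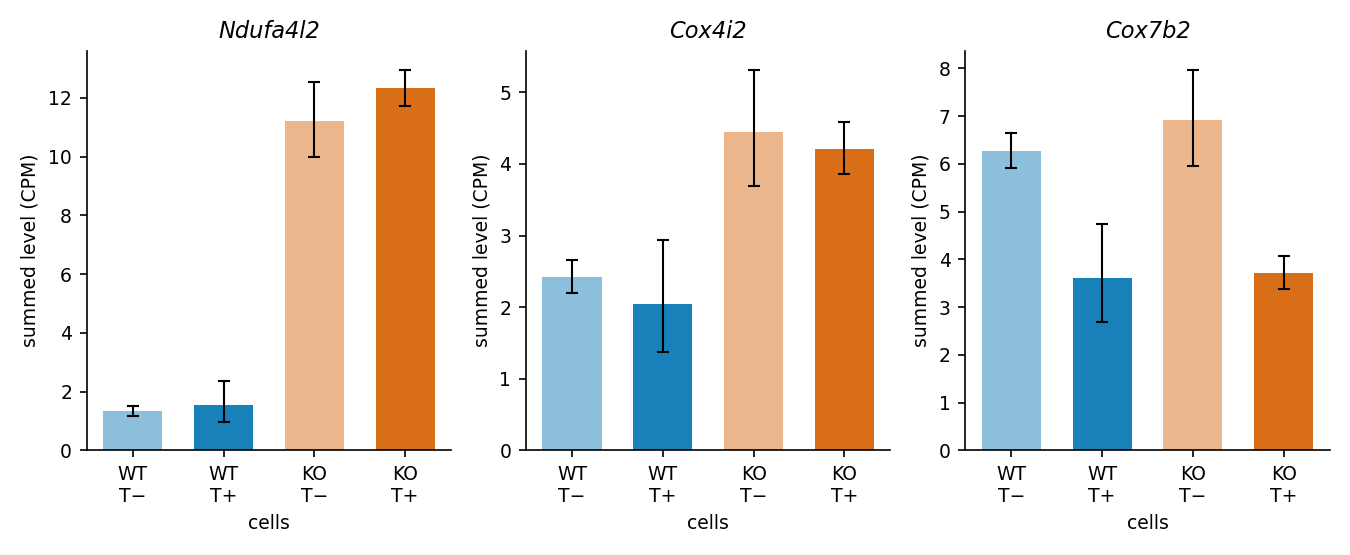
Summed level (CPM) of Ndufa4l2, Cox4i2 and Cox7b2 in T-negative and T-positive cells of the wild type and knockout libraries, with 95% Poisson intervals for counting error. Ndufa4l2 has 1.34 and 1.55 CPM for wild type, with the knockout at 11.2 and 12.3 CPM, and Cox7b2 is lower in T-positive cells of both libraries.

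Cells were next divided by T, the Brachyury gene of the primitive streak, and called T-positive with at least 1 T UMI after thinning. This left out 773 wild type and 644 knockout cells as too shallow. T-positive cells were 6.72% of the wild type cells (520 cells; 6.17 to 7.30) and 82.0% of those in the knockout (5149 cells; 81.0 to 82.9). Of the 520, 445 held exactly 1 T UMI, which free RNA could also give. T-negative cells were not alike in the libraries, since Mesp1, a gene of early mesoderm, had 0.36 CPM in those of the wild type and 178 CPM in those of the knockout.

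The difference between genomes was present in both T states. Among T-negative cells the median log2 ratio was -0.08 for nuclear subunits and 0.30 for mitochondrially encoded ones, and among T-positive cells -0.06 and 0.36. Mitochondrially encoded UMIs per 100 nuclear ones were 26.0 in T-negative and 26.5 in T-positive wild type cells, and 33.0 and 35.3 in the knockout. In T-negative cells 1 member was higher, Ndufa4l2 (1.34 and 11.2 CPM), and 0 were lower of 100 measured, against 12.1% and 1.75% of all genes. In T-positive cells mt-Atp8 (24.7 and 41.0 CPM, from 350 UMIs in wild type) joined Ndufa4l2 (1.55 and 12.3 CPM). That made 2 higher and 0 lower of 99, against 9.87% and 2.81%.

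Within the knockout library, all 12 measured mitochondrially encoded genes had more CPM in T-positive than in T-negative cells, with a median log2 ratio of 0.11. The median was 0.01 for nuclear subunits and 0.00 for all genes. Knockout cells with 0, 1 and 2 T UMIs had 1.23%, 1.26% and 1.246% of their UMIs from mitochondrially encoded members. Those with 3 to 5, 6 to 10 and 11 or more had 1.30%, 1.35% and 1.51%. The nuclear share lay between 3.72% and 3.77% in every knockout bin. In wild type, bins of 0, 1 and 2 T UMIs (7222, 445 and 56 cells) had 1.03%, 1.04% and 1.11% from mitochondrially encoded members. In the knockout the mitochondrially encoded share showed no steady order over 0 to 2 T UMIs and was higher in each bin from 3 upward.

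**Figure D4:**
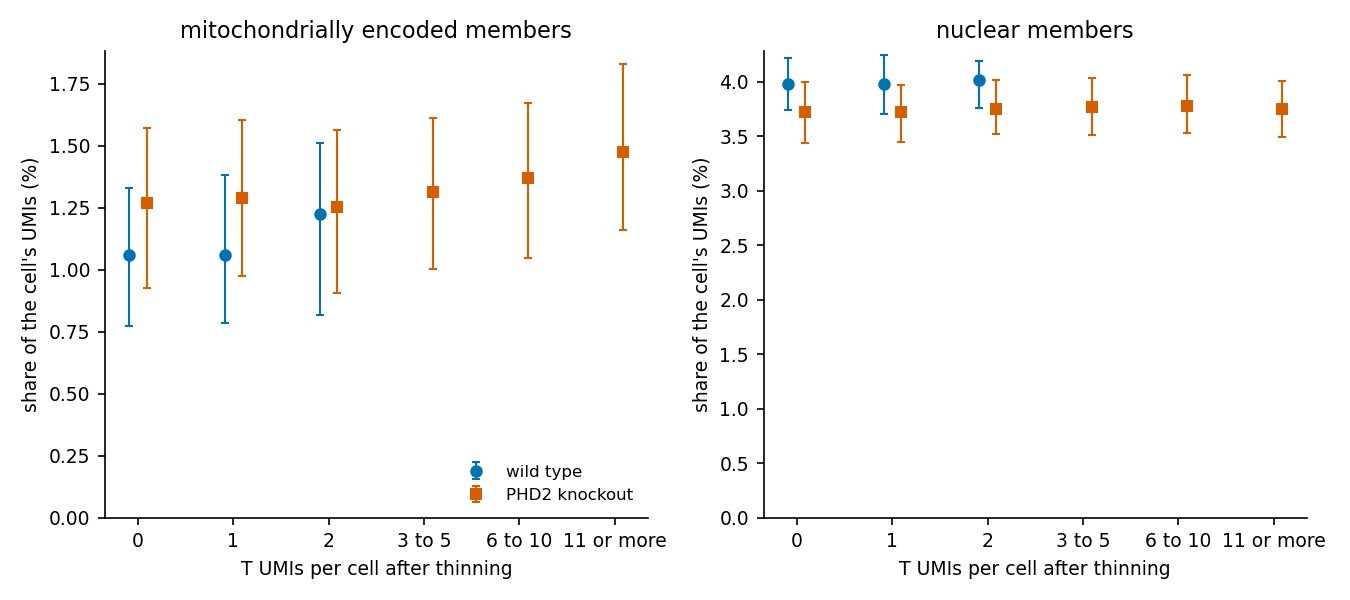
Share of UMIs (%) from mitochondrially encoded and from nuclear members by the number of T UMIs per thinned cell, for each library as the median with quartiles over cells, leaving out bins with fewer than 20 cells. In the knockout the mitochondrially encoded median over cells is 1.27% at 0 T UMIs and 1.48% at 11 or more.

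Cox7b2, known as a testis form of Cox7b, was the 1 member past the fold between T states in each library. It was at 6.28 CPM in T-negative and 3.60 CPM in T-positive wild type cells (51 UMIs), and at 6.91 and 3.72 CPM in the knockout. In each library Cox7b2 met the minimum level through the T-negative cells alone, so it could be counted only as lower. In the knockout 1 member was lower and 0 higher of 100, where 2.08% of all genes were lower and 1.87% higher. In wild type 1 was lower and 0 higher of 99, where 0.161% were lower and 0.497% higher. Over all cells Cox7b2 was at 6.02 and 4.28 CPM (-0.41), while the log2 ratios within T-negative and T-positive cells were 0.12 and 0.04. Both T-positive levels were under the minimum.

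Among complex I assembly factors, Ndufaf4, Ndufaf5 and Ndufaf6 had the highest log2 ratios of T-positive over T-negative knockout cells (0.35, 0.24 and 0.29). The same ratios in wild type were 0.09, 0.23 and 0.05. Of the 7, 6 had log2 ratios above 0 in the knockout, with a median of 0.11 and none past the fold, and Ndufaf2 was at -0.04. Ndufaf4 was at 84.3 CPM with 0 T UMIs, 109 CPM with 3 to 5 and 116 CPM with 11 or more. Ndufaf6 was at 50.9 CPM with 0 and 67.1 CPM with 11 or more. Whether these genes differ from the subunits was not tested.

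Expression by chromosome divided the cells further. Shares of a chromosome were taken of the UMIs of autosomal genes, which leaves out chromosome X and mitochondrial DNA. A Gaussian mixture with 2 components on the share from chromosome 8 put 7244 of 8515 wild type and 3882 of 6927 knockout cells in a high class. The same on chromosome 11 put 75 wild type and 710 knockout cells in a high class. These classes come from the data and are not groups of the study, and copy number was not measured. Nuclear subunits had medians of -0.08 in chromosome 8-high and -0.09 in chromosome 8-low cells, and mitochondrially encoded subunits 0.29 and 0.39. The difference between genomes was present in both classes.

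In the knockout the share of chromosome 8-high cells also differed along T, from 60.3% at 0 T UMIs to 43.7% at 11 or more. Within chromosome 8-high cells the mitochondrially encoded share was 1.17% at 0 T UMIs and 1.41% at 11 or more, and within chromosome 8-low cells 1.31% and 1.57%. The difference between these end bins was present in both classes, and in chromosome 8-low cells the bin of 2 T UMIs, at 1.30%, was below that of 0.

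Genes on a chromosome whose share defines the classes are higher in its high class by construction, and the values of members there are given as a description. Cox4i1 (chr8:120668222-120674207), Ndufb7 and Ndufa13 had log2 ratios of 0.53, 0.37 and 0.28 in chromosome 8-high over chromosome 8-low wild type cells, where the median of 484 other genes of chromosome 8 was 0.39. No member passed the fold there (0 higher, 0 lower), against 1.15% and 2.28% of all genes. Uqcrq, Uqcr10, Atp5g1 and Atp5h of chromosome 11 had 0.50, 0.50, 0.56 and 0.50 in chromosome 11-high over chromosome 11-low knockout cells, with a median of 0.51 for 755 other genes of the chromosome. In that comparison Cox7b2 was the 1 higher member (4.01 and 6.27 CPM in low and high cells) and Cox6b2 the 1 lower (146 and 89.3 CPM), against 5.25% and 2.07% of all genes. Cox7b2 met the minimum level there through the high cells alone. Without the members on chromosomes 8, 11 and X, the median of nuclear subunits between genotypes was -0.06.

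Ndufa1 (chrX:37187588-37191163) and Ndufb11 (chrX:20615326-20617619), accessory subunits of complex I, differed between the chromosome 8 classes. In chromosome 8-high cells Ndufa1 was at 216 and 308 CPM (0.51) and Ndufb11 at 369 and 541 CPM (0.55). In chromosome 8-low cells they were at 209 and 197 CPM (-0.09) and 368 and 368 CPM (-0.00). Other genes in the first 60 Mb of chromosome X had medians of 0.67 (112 genes) and 0.17 (104 genes) in those classes. In chromosome 8-high over chromosome 8-low knockout cells Ndufa1 was the 1 higher member and Ndufa4l2 the 1 lower (16.3 CPM in low and 8.80 CPM in high cells), against 2.57% and 2.57% of all genes.

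Ndufa4l2 was the 1 member past the fold between genotypes in either class, at log2 ratios of 2.02 in chromosome 8-high and 2.81 in chromosome 8-low cells. Of all genes 11.3% were higher and 2.01% lower in the former, and 11.4% and 4.1% in the latter.

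**Figure D5:**
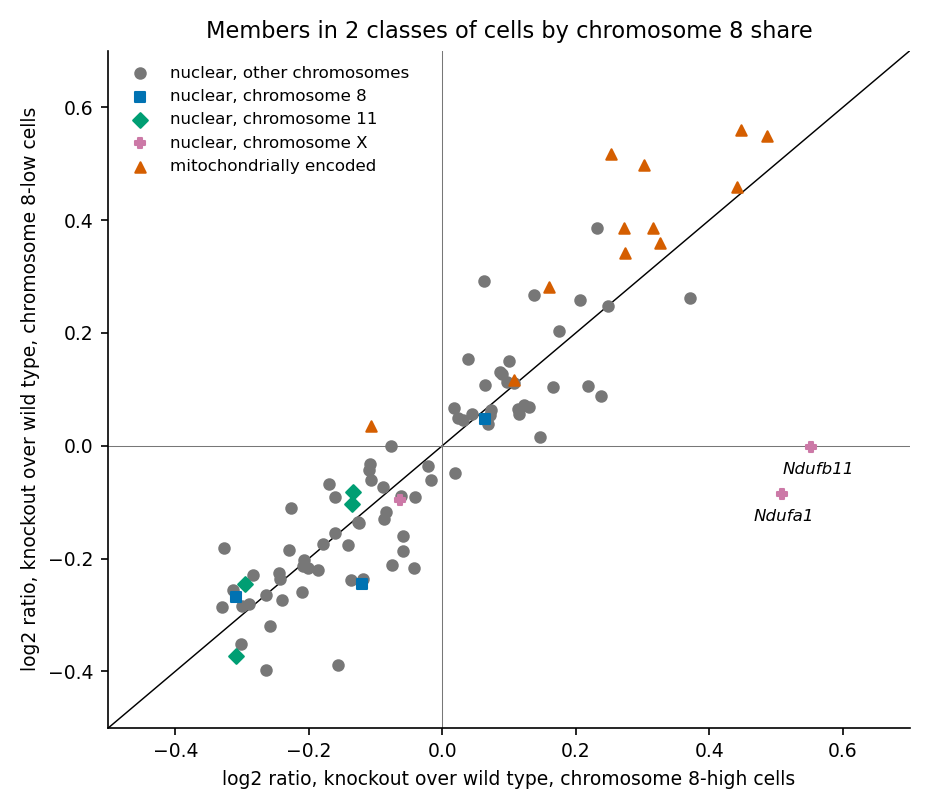
Log2 ratio of knockout over wild type in chromosome 8-high cells and in chromosome 8-low cells, 1 point for each of 97 members measured in both, with the line of equal ratios and chromosomes in different symbols. Ndufa1 (0.51 and -0.09) and Ndufb11 (0.55 and -0.00) have higher ratios in chromosome 8-high cells, and Ndufa4l2, at 2.02 and 2.81, is outside the axes.

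Nuclear members share known regulators, among them NRF1 and ETS-family factors such as GABP, so their promoters were searched for short motifs. RefSeq promoters of GRCm38.p6, from 250 bases before to 50 after a gene's start, matched 73 members with 78 promoters. The core TGCGCA of the NRF1 motif was in 19 of the 78 (24.4%) and in 7.76% of all 32851 promoters. The ETS core CCGGAAG was in 17 (21.8%), against 8.86%. ACGTG or GCGTG, which share CGTG and stand for the hypoxia response core, were in 51 (65.4%), against 43.8%. Both strands were searched. Measured members with the NRF1 core had a median log2 ratio of -0.05 (18 genes) and those without it -0.10 (54 genes). For the ETS core the medians were -0.10 (17) and -0.08 (55), and for the hypoxia core -0.10 (47) and -0.06 (25). A match is a run of letters, not a shown binding site. The set of all promoters was not matched to the members in base composition or level, so the shares are a description only.

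The 250 bases before the start are shown for the members with the lowest, the middle and the highest log2 ratio among those with the NRF1 core there, because the same letters stand before genes on both sides of 0. These are Ndufs6 (chr13:73328483-73328732, minus strand), at -0.30, Ndufa6 (chr15:82354292-82354541, minus strand), at -0.05, and Sdha (chr13:74350241-74350490, minus strand), at 0.32. Capitals mark the core.
Ndufs6: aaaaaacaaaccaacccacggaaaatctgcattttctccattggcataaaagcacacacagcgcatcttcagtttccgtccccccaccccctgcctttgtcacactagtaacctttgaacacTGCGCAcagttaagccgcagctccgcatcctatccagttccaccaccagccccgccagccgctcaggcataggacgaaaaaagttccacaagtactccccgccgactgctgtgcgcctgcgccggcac
Ndufa6: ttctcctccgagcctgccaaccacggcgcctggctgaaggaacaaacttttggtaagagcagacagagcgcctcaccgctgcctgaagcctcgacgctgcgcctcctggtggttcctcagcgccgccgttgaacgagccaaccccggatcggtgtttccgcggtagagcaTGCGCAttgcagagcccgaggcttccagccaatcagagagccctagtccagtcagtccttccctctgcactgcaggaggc
Sdha: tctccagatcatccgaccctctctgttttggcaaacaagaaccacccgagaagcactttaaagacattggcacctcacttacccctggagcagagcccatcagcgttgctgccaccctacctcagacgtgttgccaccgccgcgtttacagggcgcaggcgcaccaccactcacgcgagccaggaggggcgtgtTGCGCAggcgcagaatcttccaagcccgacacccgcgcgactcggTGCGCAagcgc
The core occurs 1 time before Ndufs6 and Ndufa6 and 2 times before Sdha.

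Other lists of mitochondrial genes were read against the 11.7% of all genes that were higher and the 2.35% that were lower. Of 28 measured assembly factors of complexes II, III and IV, 0 were higher and 0 lower, with a median log2 ratio of -0.01, from Uqcc2 (222 and 166 CPM) to Sdhaf4 (41.9 and 56.9 CPM). Of 11 further assembly factors of complex I and the ATP synthase, 0 passed the fold (median 0.06), with Ecsit at 21.7 and 14.9 CPM and Acad9 at 10.4 and 13.7 CPM. Electron carriers and coenzyme Q synthesis gave 0 of 16 (median 0.00), with Pdss1 at 19.7 and 15.6 CPM and Coq2 at 23.7 and 32.4 CPM. Both of these enzymes act in coenzyme Q synthesis.

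Mitochondrial DNA copying and transcription gave 0 of 21 (median 0.09), beside the higher mitochondrially encoded levels. Ssbp1, which binds single-stranded mitochondrial DNA, was at 413 and 314 CPM, and Fastkd1 at 6.35 and 9.36 CPM. Among 8 measured regulators of mitochondrial biogenesis (median 0.10), the coactivator Ppargc1b was higher (2.50 and 5.09 CPM) and Myc lower (11.7 and 7.52 CPM). Ppargc1b met the minimum level through the knockout alone, so it could be counted only as higher. Tricarboxylic acid cycle genes gave 0 of 13 (median 0.17), from Mdh2 (342 and 318 CPM) to Ogdh (23.4 and 35.0 CPM). Membrane carriers and import gave 0 of 15 (median -0.03), and Slc25a5, an ADP/ATP carrier, was at 715 and 960.4 CPM.

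The list of HIF-linked mitochondrial genes, which holds Ndufa4l2 and Cox4i2, had 5 of 9 measured genes higher and 0 lower, against 11.7% and 2.35% of all genes (median 0.56). Besides Ndufa4l2 these were the mitophagy receptors Bnip3 (10.1 and 27.7 CPM) and Bnip3l (71.4 and 120.4 CPM), Fam162a (138 and 279 CPM) and Pdk1, a kinase that inhibits pyruvate dehydrogenase (9.70 and 14.8 CPM). Iscu, a scaffold for iron-sulphur clusters, was at 76.3 and 70.2 CPM. Because this list was chosen with earlier results of these data known, its count is a description only. Of marker lists, against the same shares of all genes, 7 of 7 primitive streak and 5 of 5 nascent mesoderm genes were higher, 1 of 5 formative epiblast genes was higher and 2 lower, 2 of 4 measured naive genes were higher, and 1 of 3 pluripotency genes, Sox2, was lower (38.4 and 25.1 CPM). Dissociation stress genes gave 0 of 6, with Junb at 50.4 and 75.3 CPM.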

How the data were processed

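Droplet libraries of wild type and PHD2 knockout cells, grouped by their titles, were used. The authors deposited unnormalized UMI counts per gene and barcode, made with Cell Ranger 4.0.0 per the file headers. Cell Ranger, Seurat and mm10 are named in the submitters' processing notes. The end of the transcript that was read, and how reads matching several genes were treated, the sources used here do not give. The matrices held 9651 wild type and 7713 knockout barcodes with 226179474 and 173470962 UMIs.

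Cells with at least 1000 genes and at most 10% mitochondrially encoded UMIs were kept. Scrublet (scanpy 1.11.5) marked 0 and 0 cells at its automatic threshold, so the highest scores were removed at 0.8% per 1000 barcodes (712 and 456 cells). Coordinates came from GENCODE M21, matched for 27645 genes. Levels have exact Poisson intervals, and shares and ratios exact binomial (Clopper-Pearson) ones, computed with scipy 1.17.1. The calculations were tested on simulated data.

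The members and lists were chosen with earlier results of these data known. Named members are the mitochondrially encoded ones, the paralogues, those past 1.5-fold, and in each complex and the assembly factors the nuclear member with the most UMIs and the 2 highest and 2 lowest ratios, with up to 2 genes from each end of the 8 other lists. Ndufaf5, Ndufaf6, Ndufb7, Uqcr10, Atp5h, Ndufa6, Atp5s and Atp5sl were added after their values were seen, as were the NRF1 core, used after a longer form of the motif, and the promoters shown. Of the list genes, Coq8a, Dmac1 and Fmc1 were not found under those symbols. Alternatives were other limits on cells, doublet removal, scalings, minimum levels, pseudocounts, folds, T definitions and chromosome 8 classes. Leaving out chromosome 11-high cells, or members on chromosomes 8, 11 and X, was chosen after seeing the data.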

Additional observations from a re-analysis of the deposited data

Results flagged for a closer look

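Ndufa1 had log2 ratios of knockout over wild type on opposite sides of 0 in the classes of cells by chromosome 8 share, 0.509 in chromosome 8-high cells and -0.0856 in chromosome 8-low cells. Mt-Atp8 had log2 ratios of T-positive over T-negative cells on opposite sides of 0, 0.171 in the knockout and -0.205 in wild type, where T-positive cells gave 350 UMIs. Each value comes from 1 library per group, and the difference was not tested in either case.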

How the results depend on the processing

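No paired analysis was possible because each group is 1 library, and for the same reason no replicate could be left out. Of 102 alternative values for 7 summary results, 91 stayed close to the value reported (for counts, within 1.5 times), 11 did not, and 0 called values changed sign. Under size factors by median of ratios the median log2 ratio of nuclear subunits was -0.26 in all cells and -0.26 in T-negative cells, that of mitochondrially encoded subunits was 0.19 and 0.13, and 2 members passed the fold, Cox7b2 (lower) beside Ndufa4l2. The number of members past the fold was 4 with no minimum level (Cox4i2, Cox6a2 and mt-Nd6 added), 0 at 20 CPM or more, which leaves out Ndufa4l2, and 16 (13 higher, 3 lower; 9 of the 16 mitochondrially encoded) with the lowest fold tried, a log2 ratio of 0.32, which 31.8% of all genes passed upward and 6.90% downward. Between T states in the knockout, the nuclear median was -0.0052 in chromosome 8-low cells, on the other side of 0 from the value reported. Between the same states the mitochondrially encoded median was 0.15 with T-positive set at 3 or more UMIs and 0.13 without chromosome 11-high cells. A scaling, minimum or fold changes such values by its construction, and for the other values the cause was not tested.

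For 100 single members, 680 of 1000 values stayed within their counting intervals and 0 called values changed sign. Only Ndufa4l2 was past the fold in the values reported for all kept cells, so that 0 says little of the other members. The sign of 22 members changed under size factors by median of ratios, of 5 in chromosome 8-low cells, of 1 in chromosome 8-high cells and of 1 with a mean over cells of each cell's share. Depth limits Cox4i2, Cox6a2, Cox8c, mt-Nd6 and the 520 wild type T-positive cells.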

Other observations

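Across single cells of at least 14000 UMIs, the shares of UMIs from mitochondrially encoded and from nuclear members had a Spearman correlation of -0.11 over 7742 wild type cells and -0.10 over 6283 knockout cells. Both shares are parts of 1 total in each cell, and the weak values are given as a description.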
